A study of Mus musculus with 6 samples.

Results

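The Frizzled receptors are the family of genes named Fzd1 to Fzd10, chosen by symbol, and all 10 were found among the 24421 gene symbols of the count table. Frizzled proteins span the membrane and bind secreted Wnt proteins through a cysteine-rich outer domain. With the co-receptors Lrp5 or Lrp6 they pass the signal through Dishevelled to β-catenin, and with the Vangl and Celsr proteins they set planar cell polarity, the common orientation of cells in a sheet. In the cochlea, Wnt signaling bears on the division of supporting cells (SCs) and the formation of hair cells (HCs), and planar polarity orients the hair bundles.

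RNA was measured in cochlear explants of wild-type mice at postnatal day 2, cut out and kept in culture. The control group and the neomycin group held 3 samples each, and every sample pooled 6 to 8 cochleae. The explants spent 12 h in culture, the neomycin group then received 1 mM of neomycin, an aminoglycoside that kills HCs, for 6 h, and all were cultured for 5 more days with 10 μM EdU, a label of DNA synthesis. The treatment label separates the groups, but the growth text is the same for all 6 samples and mentions neomycin in each. The labels do not say whether pools of a group came from separate litters or cultures, so p-values measure only the spread between these samples, which may be technical. By the study's culture method, the stria vascularis anlage, the modiolus and the tectorial membrane were taken off before culture. The pools mix the cell types that remained, and fewer cells of a type and less RNA per cell cannot be told apart.

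The total counts ran from 50471116 to 66068108 per sample, and member counts from 247 to 10292. Levels are given as CPM, read counts set on a common library total after TMM scaling. A gene was said to rise or fall at an adjusted p under 0.05 in edgeR's quasi-likelihood test over all 15988 genes with enough counts, and to be differentially expressed when the fold change was also over 1.5. HC markers checked the labels: 19 of 20 tested fell, with a median log2 fold change of -2.00, and their summed level went from 1047 to 1199 CPM in control down to 350.2 to 413.4 CPM after neomycin. Atoh1, the transcription factor that starts HC formation, was the exception, at -0.05 ± 0.22 on the log2 scale (SE, n = 3 per group, adjusted p = 0.901). Of the other marker lists, 7 of 13 macrophage genes rose and 0 fell, 3 of 15 mesenchyme genes rose and 5 fell, 2 of 14 neuron genes rose and 5 fell, 2 of 11 Schwann cell and glia genes fell, and 5 of 15 cycling cell genes fell. These counts stand beside 12.9% of all genes tested that rose and 16.1% that fell.

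Of the 10 Frizzled genes, all of which passed the filter on low counts, 4 fell after neomycin, namely Fzd1, Fzd4, Fzd6 and Fzd9, and 0 rose. Among all genes tested, 29.0% passed the test, 16.1% as lower and 12.9% as higher. At an unadjusted p under 0.05, 5 members were lower and 0 higher, beside 22.1% and 18.9% of all genes tested, and DESeq2 and limma-voom each called 4 members as lower and 0 as higher. With scaling by library totals alone the split of all calls went from 55.5% lower to 70.4% lower, and the median of all genes moved from -0.0041 to -0.07 on the log2 scale. Only Fzd4 was differentially expressed, against 8.84% of all genes tested in either direction and 6.60% as lower. The groups did not overlap in CPM for 6 of the 10, against 43.5% of all genes. The median log2 fold change of the members was -0.19, beside -0.0041 for all genes tested.

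**Figure D1:**
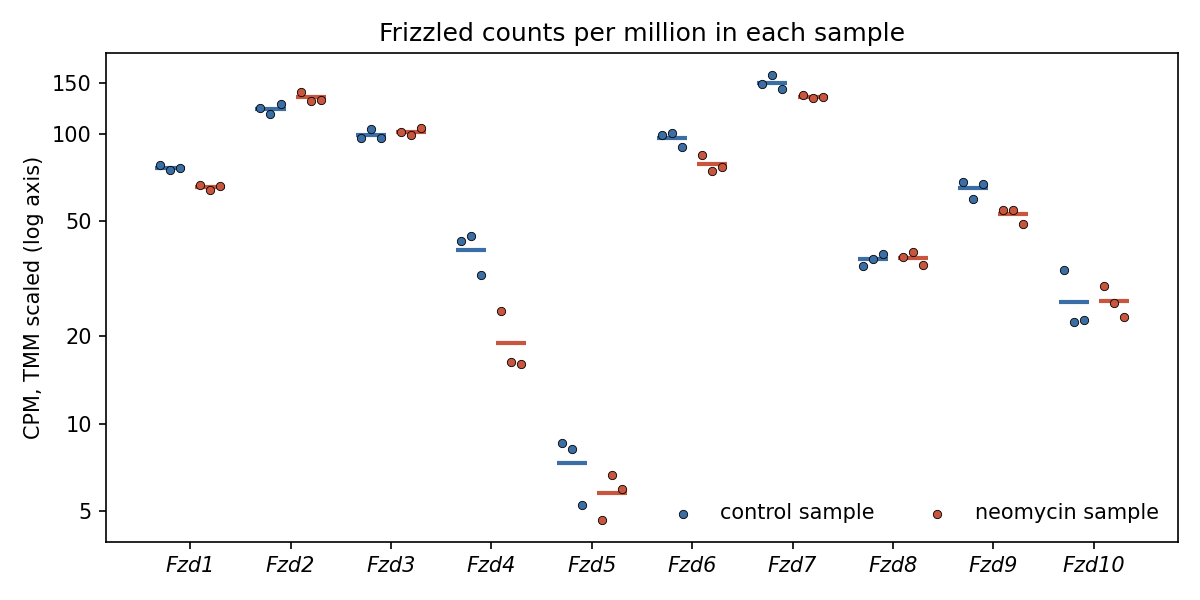
CPM of each Frizzled gene in every sample, on a log axis, with points for the 3 control and 3 neomycin samples and a short line at each group mean. Fzd4 went from 32.56 to 44.45 CPM in control to 16.12 to 24.53 CPM after neomycin, and Fzd8 and Fzd10 had nearly equal means.

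Fzd4, the receptor of Norrin as well as of Wnts and needed for blood vessels of the retina and the inner ear, changed by the most of the 10. The gene lies on chromosome 7 at 89404355-89413134, plus strand (GENCODE M21, mm10). Its promoter is shown because no other member was differentially expressed. It is the 250 bases before the RefSeq start site (GRCm38.p6, chr7:89404116-89404365, plus strand). The RefSeq and GENCODE starts differ, so the window ends inside the gene span given above. It has a GC content of 72.8% and 0 matches to the motifs listed with the Wnt-branch receptors further on.
Fzd4: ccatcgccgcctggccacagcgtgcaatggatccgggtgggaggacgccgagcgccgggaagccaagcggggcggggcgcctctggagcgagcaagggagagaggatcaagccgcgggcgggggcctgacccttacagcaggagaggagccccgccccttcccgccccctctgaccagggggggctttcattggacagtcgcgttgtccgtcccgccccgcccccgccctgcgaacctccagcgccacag

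Fzd4 was at 42.7, 44.45 and 32.56 CPM in control replicates 1, 2 and 3. After neomycin it was at 24.53, 16.29 and 16.12 CPM. All 3 control samples were above all 3 neomycin samples, and neomycin replicate 1 was the highest of its group. The mean went from 39.9 ± 6.42 to 19.0 ± 4.81 CPM (SD, n = 3 each), a log2 fold change of -1.07 ± 0.16 (SE) with a 95% interval of -1.42 to -0.73 and an adjusted p of 0.000586. Of all genes tested, 3.73% had a more negative log2 fold change. Fzd4 fell in all 15 alternative fits, by log2 fold changes between -1.30 and -0.97. The 95% interval for Fzd4 lay below those of all other members except Fzd5.

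The partners of Fzd4 did not move one way. Ndp, which encodes Norrin, rose from 1.63 ± 0.45 to 3.77 ± 0.50 CPM (SD, n = 3 each), by 1.20 ± 0.24 on the log2 scale (SE, adjusted p = 0.00364). Lrp5, the co-receptor that Norrin signaling uses, fell from 81.7 ± 6.03 to 51.8 ± 2.82 CPM (log2 fold change -0.66 ± 0.08, adjusted p = 0.00012). For both genes the groups did not overlap. Tspan12, a membrane protein that helps Norrin act on Fzd4, rose by a log2 fold change of 0.21 (adjusted p = 0.0483), and Adgra2, a partner in Wnt7 reception by vessels, fell by 0.37 (adjusted p = 0.0132). Tspan12 no longer passed in 8 alternatives, among them leaving out control replicate 1 or 2 or neomycin replicate 1, 2 or 3. Adgra2 no longer passed without control replicate 2 or without neomycin replicate 2. Reck, which works with Adgra2, had a log2 fold change of 0.20 and an adjusted p of 0.18. Of these 5 genes, 2 rose and 2 fell, with a median of 0.20.

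Markers of endothelial cells, the cells that line vessels, also moved. Of 17 in the list, all tested and 0 at 0 counts in every sample, 11 fell and 0 rose, and the median log2 fold change was -1.37. Cldn5, a tight-junction gene of vessels, changed by -3.40 ± 0.48 (SE, adjusted p = 0.000448), and Pecam1 by -2.71 ± 0.26 (adjusted p = 2.67e-05). Their control means were low, at 4.21 and 9.78 CPM. Emcn, Eng and Egfl7 had the highest control means of the list, at 252, 57.8 and 31.4 CPM. They were among the 6 that did not pass, with log2 fold changes of 0.12, -0.20 and 0.004. The summed level of the list was 383.6 to 437.2 CPM in control and 360.7 to 413.1 CPM after neomycin, ranges that overlap. Emcn alone made up 238 to 259.3 and 245.5 to 297.6 CPM of these sums. Without Emcn, left out after its values were seen, the sums were 145.5 to 177.9 CPM in control and 115.3 to 115.9 CPM after neomycin. The part of these cells in the Fzd4 result was not tested. Nor was that of the lower HC markers or of any other cell type.

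**Figure D2:**
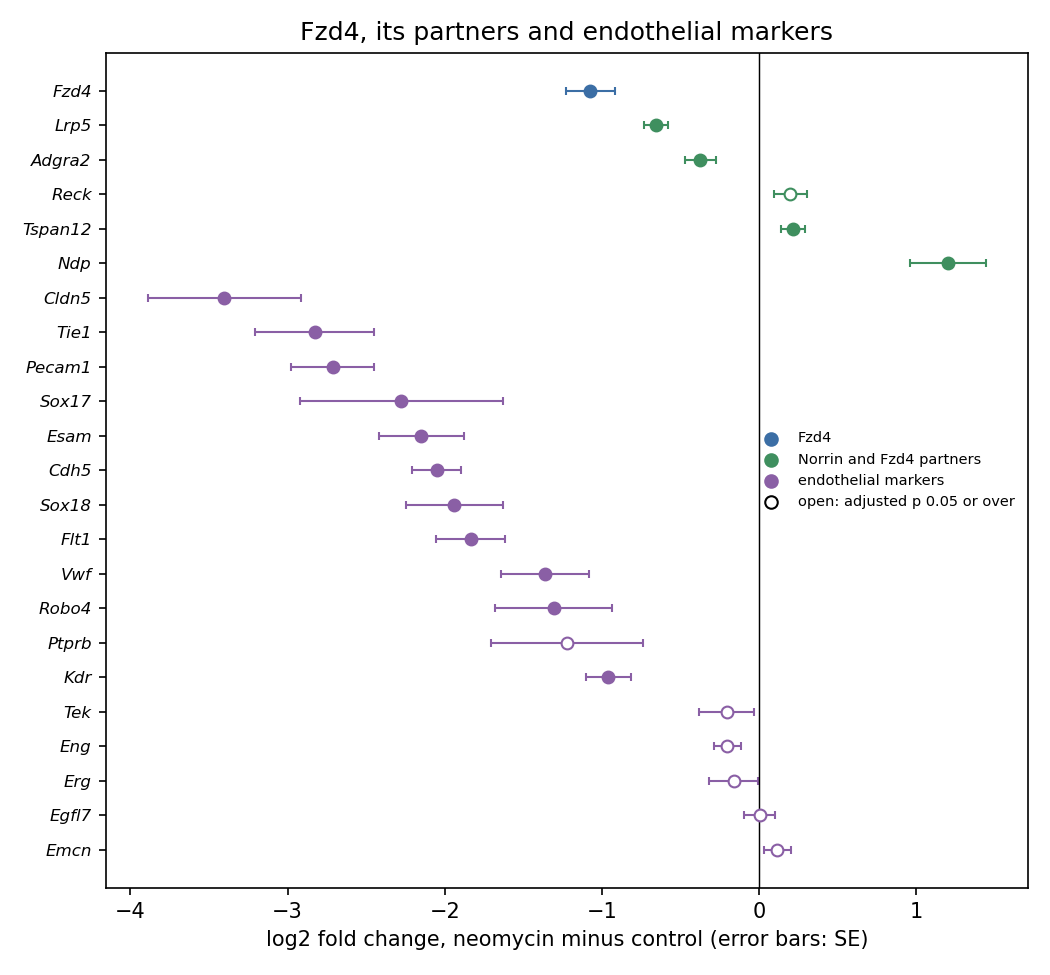
Log2 fold change of Fzd4, of the 5 Norrin and Fzd4 partners and of the 17 endothelial markers, with error bars of 1 SE and open circles where the adjusted p was 0.05 or over. Fzd4 lies at -1.07, Ndp at 1.20 and Lrp5 at -0.66, while the markers spread from -3.40 for Cldn5 to 0.12 for Emcn.

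Fzd1, Fzd2 and Fzd7 form the branch closest in sequence to one another, with roles in both β-catenin signaling and planar polarity. Fzd1 lies on chromosome 5 at 4753839-4758035 (minus strand), Fzd2 on chromosome 11 at 102604396-102608058 (plus strand) and Fzd7 on chromosome 1 at 59482424-59486955 (plus strand). Promoters were examined for 6 of the 10 members, Fzd1, Fzd4, Fzd5, Fzd7, Fzd9 and Fzd10. The 250 bases before their RefSeq start sites were searched on both strands for CTTTGA or CTTTGT (TCF and LEF, the factors that β-catenin works through), GGAATG (TEAD, the partners of YAP) and TGGGAA (RBPJ, the factor of Notch signaling). The ends of GGAATG and TGGGAA can overlap. The motifs were present, in the order given, in 27.6%, 12.6% and 21.6% of 32851 promoters of this length. Matches were found in Fzd1 and Fzd7 and only to TCF and LEF, which is why both are shown, with the matches in capitals. The Fzd1 window is chr5:4758217-4758466, minus strand, and the Fzd7 window chr1:59481897-59482146, plus strand (RefSeq, GRCm38.p6).
Fzd1: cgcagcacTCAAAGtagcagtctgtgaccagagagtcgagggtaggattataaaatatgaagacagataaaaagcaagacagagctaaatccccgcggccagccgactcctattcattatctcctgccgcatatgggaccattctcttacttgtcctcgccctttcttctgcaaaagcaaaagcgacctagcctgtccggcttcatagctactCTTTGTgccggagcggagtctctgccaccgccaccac
Fzd7: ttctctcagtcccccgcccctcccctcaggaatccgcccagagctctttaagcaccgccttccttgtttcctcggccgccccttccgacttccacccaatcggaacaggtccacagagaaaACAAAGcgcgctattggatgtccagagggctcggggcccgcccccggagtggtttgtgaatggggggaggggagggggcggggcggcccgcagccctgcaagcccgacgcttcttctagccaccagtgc
Counted from the RefSeq start site, the matches begin at -242 and -37 in Fzd1 and at -129 in Fzd7. The RefSeq starts of Fzd1 and Fzd7 lie upstream of the GENCODE starts given above. A match describes the letters of the window and not a site in use.

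Fzd1 fell. It was at 78.42, 74.95 and 76.64 CPM in control and at 66.92, 64.33 and 66.28 CPM after neomycin, so that the groups were tight and did not overlap. The means were 76.7 ± 1.74 and 65.8 ± 1.35 CPM (SD, n = 3 each), and the log2 fold change was -0.22 ± 0.07 (SE, adjusted p = 0.025). Fzd1 no longer passed in 4 fits with a sample left out, with an adjusted p of 0.0815 without control replicate 1, 0.0604 without control replicate 2, 0.118 without neomycin replicate 2 and 0.0717 without neomycin replicate 3.

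Fzd2 had the most positive estimate among the 10 members. It was at 122.9, 117.5 and 126.7 CPM in control and at 140.1, 130.7 and 131.7 CPM after neomycin. The neomycin samples were all above the control samples. The log2 fold change was 0.13 with a 95% interval of -0.02 to 0.28, and the adjusted p was 0.17, so the test was not passed. With library totals in place of TMM the estimate was 0.06.

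Fzd7 had the highest CPM of the family in control. It was at 149.1, 159.9 and 142.9 CPM in control and at 136.7, 133.1 and 134.4 CPM after neomycin. The groups did not overlap, and the control samples were the more spread. The log2 fold change was -0.16 with a 95% interval of -0.31 to -0.01, an unadjusted p of 0.0401 and an adjusted p of 0.104. With library totals in place of TMM the adjusted p was 0.0365 and the log2 fold change -0.23.

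Fzd3 and Fzd6 act together in orienting the hair bundles of the inner ear. Fzd3 lies on chromosome 14 at 65192449-65262463 (minus strand) and Fzd6 on chromosome 15 at 39006034-39038188 (plus strand). Fzd6 fell. It was at 99.16, 101.2 and 89.99 CPM in control and at 84.58, 74.6 and 77.09 CPM after neomycin, without overlap. The means were 96.8 ± 5.98 and 78.8 ± 5.19 CPM (SD, n = 3 each), and the log2 fold change was -0.30 ± 0.08 (SE, adjusted p = 0.0128). Without control replicate 2 the adjusted p was 0.0653, and without neomycin replicate 2 it was 0.0819. An RNA on the opposite strand, Gm26704, overlaps 152 bases of Fzd6 exons, and the strand setting of the counting is not given in the sources used here.

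Fzd3 was at 96.81, 104.5 and 96.87 CPM in control and at 101.8, 99.52 and 104.7 CPM after neomycin. The groups overlapped, and the highest samples of both were nearly equal. The log2 fold change was 0.04 with a 95% interval of -0.11 to 0.19 and an adjusted p of 0.715. Fzd3 has the longest exons of the family, 12804 bases in all, and it passed as higher once the trend of change on gene length was removed, with a log2 fold change of 0.26 and an adjusted p of 0.0182. The direction of the Fzd3 estimate also turned among the alternatives, which ran from -0.03 to 0.26.

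Fzd9 and Fzd10 are closest in sequence to each other and, with Fzd4, make up a further branch. Fzd9 marks a set of SCs in the newborn cochlea. Fzd9 lies on chromosome 5 at 135248938-135251230 (minus strand) and Fzd10 on the same chromosome at 128600844-128604093 (plus strand). Fzd9 fell. It was at 68.11, 59.52 and 67.38 CPM in control and at 54.83, 54.86 and 48.98 CPM after neomycin. The groups did not overlap, with control replicate 2 nearest to the neomycin samples. The means were 65.0 ± 4.76 and 52.9 ± 3.39 CPM (SD, n = 3 each), and the log2 fold change was -0.30 ± 0.08 (SE, adjusted p = 0.0149). The adjusted p was 0.0534 without control replicate 1 and 0.073 without neomycin replicate 3. SC markers did not move together: of 20 tested, 4 rose and 4 fell, the median log2 fold change was 0.04, and 0 of them were at 0 in every sample. Their summed level was 12520 to 14550 CPM in control and 16210 to 19190 CPM after neomycin. Epyc, Tectb and S100a1, picked out after their values were seen, made up 10380 to 12350 and 14040 to 16700 CPM of these sums, and the other 17 genes 2141 to 2221 and 2170 to 2482 CPM. The part of these cells and of the lower HC markers in the Fzd1, Fzd6 and Fzd9 results was not tested.

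Fzd10 was at 33.85, 22.47 and 22.83 CPM in control and at 29.99, 26.03 and 23.27 CPM after neomycin. Control replicate 1 was the highest of all 6 samples, and the groups overlapped. The means were 26.4 ± 6.47 and 26.4 ± 3.38 CPM (SD, n = 3 each). The log2 fold change was 0.00035 with a 95% interval of -0.32 to 0.32 (adjusted p = 0.999). Without control replicate 1 it was 0.23 (adjusted p = 0.164), and its sign turned among the alternatives, the lowest being -0.10 without neomycin replicate 1.

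Fzd5 and Fzd8, receptors known from the eye and the brain, were the last branch. Fzd5 lies on chromosome 1 at 64730558-64737751 (minus strand) and Fzd8 on chromosome 18. Fzd5 had the lowest level of the family. It was at 8.535, 8.166 and 5.248 CPM in control and at 4.651, 6.661 and 5.958 CPM after neomycin, with control replicate 3 inside the range of the neomycin samples. The log2 fold change was -0.35 with a 95% interval of -0.77 to 0.08 and an adjusted p of 0.203. Without control replicate 3 it was -0.52 with an adjusted p of 0.0336. Of the stretches of 50 bases in Fzd5 transcripts, 16.4% are shared with Gm38058, a transcript on the opposite strand, so its count is uncertain where reads were not told apart by strand.

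Fzd8 was at 35.13, 37.13 and 38.5 CPM in control and at 37.7, 39.17 and 35.35 CPM after neomycin. The groups overlapped almost wholly. The log2 fold change was 0.02 with a 95% interval of -0.15 to 0.19 and an adjusted p of 0.876. Its sign too turned among the alternatives, which ran from -0.05 to 0.10.

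**Figure D3:**
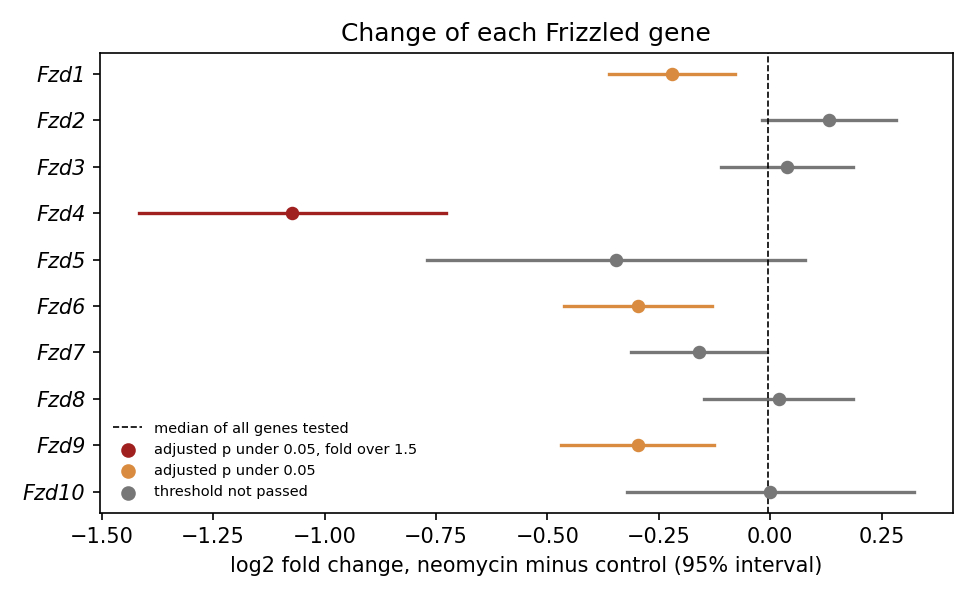
Log2 fold change of each Frizzled gene, neomycin minus control, with its 95% interval, coloured by the test passed, and a dashed line at the median of all genes tested. Fzd4 stands at -1.07, the intervals of Fzd1, Fzd6 and Fzd9 lie below 0, and those of the others, Fzd7 aside (-0.31 to -0.01), reach across 0.

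Levels of different members were compared as CPM per kb of exon. In control, Fzd2 (33.4 ± 1.27) and Fzd7 (33.2 ± 1.90) came first (SD, n = 3 each), with ranges that overlapped. Fzd9 followed at 28.4 ± 2.08, apart from both neighbours in the order. Fzd6 at 20.1 ± 1.24 and Fzd1 at 18.3 ± 0.41 overlapped, as did Fzd10 at 8.12 ± 1.99 with Fzd3 at 7.76 ± 0.35. The Fzd6 and Fzd1 ranges barely met, with a lowest Fzd6 sample of 18.68 and a highest Fzd1 sample of 18.69. By the length of the longest transcript the Fzd6 control mean was 22.4, while that of Fzd1 stayed at 18.3. Fzd8 at 6.18 ± 0.28 overlapped with Fzd4 at 5.94 ± 0.96, and Fzd5 was last at 1.06 ± 0.26. The neomycin samples had the same order of means. There Fzd2 (36.6 ± 1.41) no longer overlapped with Fzd7 (29.7 ± 0.41), nor Fzd8 (6.26 ± 0.32) with Fzd4 (2.83 ± 0.72).

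**Figure D4:**
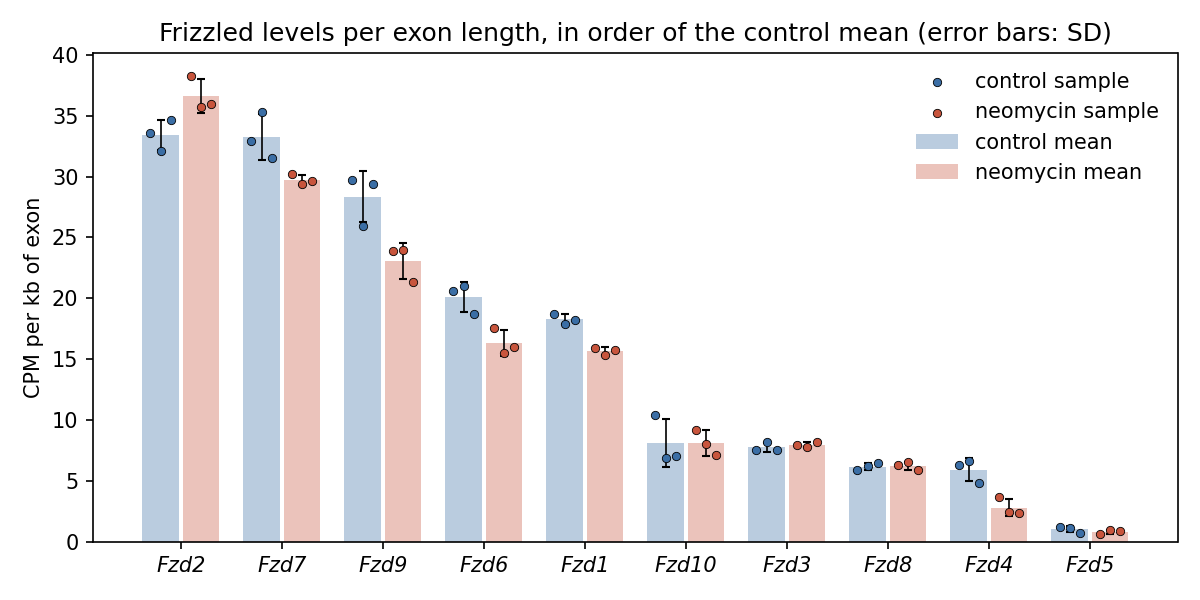
CPM per kb of exon of each Frizzled gene in order of the control mean, with bars for the group means, error bars of 1 SD and points for the samples. Fzd2, Fzd7 and Fzd9 lie highest in both groups, and Fzd5 lies at 1.06 in control and 0.83 after neomycin.

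Summed over the 10 members, the level went from 162.4 ± 4.02 to 147.5 ± 5.45 CPM per kb (SD, n = 3 each). The branch of Fzd1, Fzd2 and Fzd7 held 52.3% ± 1.11 of the family in control and 55.7% ± 1.02 after neomycin, and that of Fzd4, Fzd9 and Fzd10 held 26.1% ± 1.69 and 23.1% ± 1.28. Fzd3 and Fzd6 held 17.2% ± 0.83 and 16.5% ± 0.46, and Fzd5 and Fzd8 4.46% ± 0.17 and 4.82% ± 0.32. The share of Fzd2 alone went from 20.6% ± 1.02 to 24.8% ± 0.29, and that of Fzd4 from 3.65% ± 0.55 to 1.91% ± 0.41. The shares describe the samples and were not tested.

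For the 4 members that fell, the genes with the most similar pattern were sought by Pearson's r of log2 CPM over the 6 samples, among 14035 genes with a mean of at least 1 CPM. For Fzd4 these were Rab11fip1 (r = 0.999), Fhod3 (0.999) and E2f3 (0.999), and 1665 genes had an r over 0.9. For Fzd6 they were E2f3 (0.997), Mob1b (0.997) and Ankrd13c (0.996), with 1522 genes over 0.9. For Fzd1 they were Pde2a (0.999), Tjap1 (0.996) and Clec18a (0.994), with 1264 over 0.9, and for Fzd9 Susd1 (0.991), Strada (0.988) and Cap1 (0.988), with 516 over 0.9. The 6 points fall into 2 groups, so genes that differ between the groups share much of this pattern, and the values are a description.

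Among the other genes of the Wnt pathway, 96 in 10 lists, 84 were tested, 9 rose and 17 fell, which is 31.0% passed beside 29.0% of all genes, and the median log2 fold change was -0.05. Of the Wnt ligands, 1 of 13 tested rose and 1 fell (median -0.01). Wnt6 was at 0.66 ± 0.24 CPM in control and 1.70 ± 0.35 CPM after neomycin (log2 fold change 1.36, adjusted p = 0.0127), and no longer passed without neomycin replicate 2 (adjusted p = 0.0629). Wnt7a fell from 77.0 ± 4.43 to 61.3 ± 4.10 CPM (SD, n = 3 each; log2 fold change -0.33, adjusted p = 0.00754). Of 7 co-receptors and other Wnt receptors, 0 rose and 2 fell (median -0.31), Lrp5 and Ror1, a receptor of Wnt5a, which changed by -1.01 ± 0.20 (SE, adjusted p = 0.0030).

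A further list holds genes that set how many Frizzled proteins stay at the surface. These are the ubiquitin ligases Rnf43 and Znrf3, the R-spondins and their Lgr receptors. Tmem67 and Apcdd1 were listed with them, and of the 10 tested in all, 0 rose and 2 fell (median 0.01). Lgr6 fell from 16.2 ± 3.80 to 7.36 ± 0.54 CPM (SD, n = 3 each), by 1.14 on the log2 scale (adjusted p = 0.000365), and Lgr4 by 0.29 (adjusted p = 0.0126). Lgr4 no longer passed without control replicate 2 or neomycin replicate 2. The list of antagonists holds secreted proteins that bind or alter Wnts, others that act on Lrp5 and Lrp6, and the Kremen membrane receptors, and 4 of 12 tested rose and 1 fell (median 0.11). Sfrp4, a decoy with a Frizzled-like domain, rose by 0.59 (adjusted p = 0.0106) and Notum, an enzyme that strips the lipid from Wnts, by 0.52 (adjusted p = 0.000919). Wif1, which binds Wnts, rose by 0.40 with overlapping groups (adjusted p = 0.0473) and did not pass in 6 of the alternatives, among them without control replicate 2 or 3 or neomycin replicate 2. The gene that fell was Kremen1, a receptor of the Dkk antagonists, by 0.45 (adjusted p = 0.00222).

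Inside the cell, 1 of 14 genes of Dishevelled and the β-catenin destruction complex rose and 3 fell (median -0.05). Dvl3, of the Dishevelled family that Frizzled proteins bind, fell by 0.89 (adjusted p = 0.00166), while Dvl2 rose by 0.20 (adjusted p = 0.0468) and lost the call with each of the 6 samples left out. Axin2 fell by 0.37 (adjusted p = 0.00416) and Gsk3b by 0.33 (adjusted p = 0.0139). Of the 8 TCF and LEF genes and their cofactors, 0 rose and 2 fell (median -0.05), the cofactors Bcl9l by 0.82 (adjusted p = 0.0011) and Bcl9 by 0.35 (adjusted p = 0.0254). Of 12 feedback targets of β-catenin, Notum rose, Axin2 and Ccnd1 fell, and the median was 0.02. The Ccnd1 log2 fold change was -0.40 (adjusted p = 0.00834, and 0.0516 without control replicate 2). Bcl9 no longer passed without control replicate 1 or 2 or neomycin replicate 2 or 3, and Gsk3b without control replicate 1 or 2 or neomycin replicate 2. With the trend on gene length removed, Bcl9 was at -0.20 (adjusted p = 0.114) and Gsk3b at -0.15 (adjusted p = 0.111).

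The list of planar polarity partners of Frizzled proteins holds the Vangl, Celsr and Prickle genes, with Ankrd6, Dact1, Ptk7 and Scrib. Of its 12 genes, 1 rose, Dact1, and 4 fell, all of them Vangl or Celsr genes (median -0.12). Celsr3, a large cadherin, went from 4.29 ± 0.39 to 1.58 ± 0.41 CPM (SD, n = 3 each), a log2 fold change of -1.44 (adjusted p = 0.000808). Vangl2, of the Vangl proteins of planar polarity, fell by 0.51 (adjusted p = 0.0075). Celsr2, a relative of Celsr3, fell by 0.45 (adjusted p = 0.00238), and by 0.24 with the trend on gene length removed (adjusted p = 0.0161). Dact1, which binds Dishevelled, rose by 0.53 (adjusted p = 0.00417). Smo, the Hedgehog relative of the Frizzled family, stood at -0.01 on the same scale (adjusted p = 0.957).

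**Figure D5:**
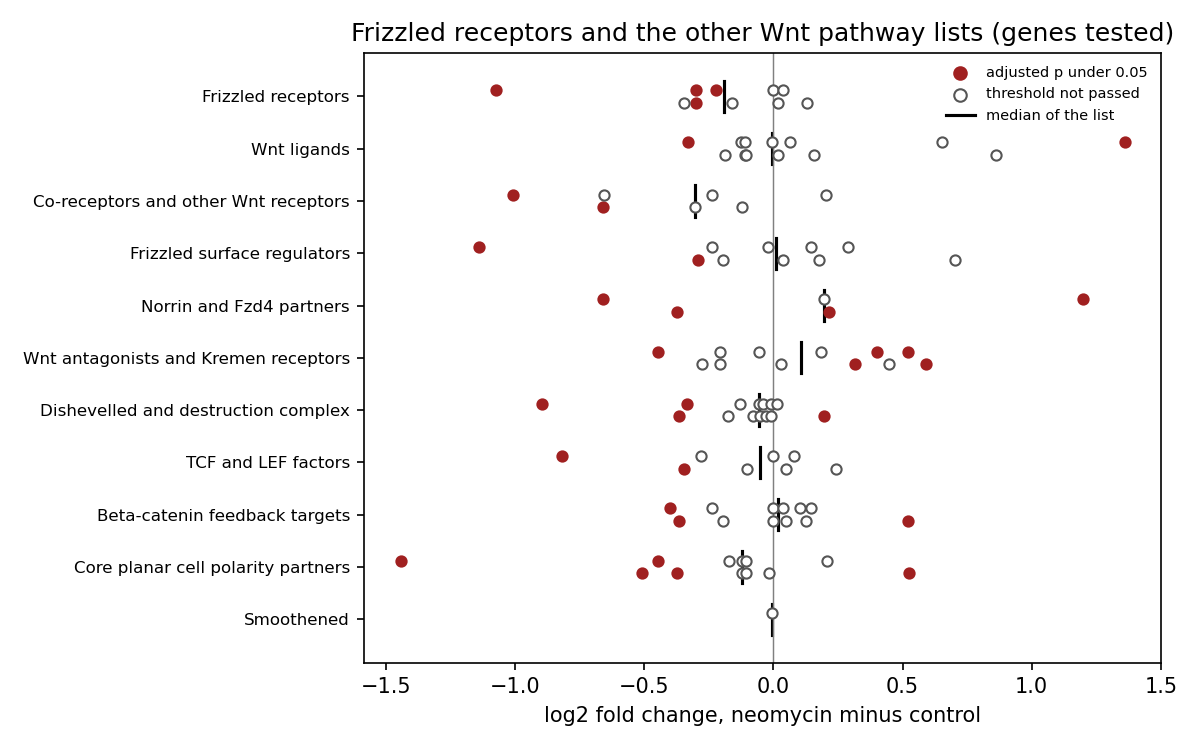
Log2 fold change of every tested gene of the Frizzled family and of the 10 Wnt pathway lists, filled where the adjusted p was under 0.05, with a line at each list's median. The Frizzled median is -0.19, and the co-receptors have the lowest median at -0.31.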

How the data were processed

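RNA of 6 samples (3 control, 3 neomycin) was sequenced from libraries of an mRNA kit. The authors called bases with CASAVA 1.8, trimmed reads with Trimmomatic 0.23 (versions per the submitters' notes), aligned them to mm10 with HISAT2 and counted them with HTSeq. The deposited counts are whole reads per gene symbol, without normalization; strand setting and annotation date are not given in the sources used here, so genes that overlap others can have gained or lost reads. Groups came from the treatment labels. Totals were 50471116 to 66068108; replicate samples of a group differed by more than counting noise.

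From the counts, edgeR 4.0.16 (R 4.3.3) was run with TMM scaling (factors 0.9628 to 1.045), filterByExpr, and the quasi-likelihood test with Benjamini-Hochberg adjustment over 15988 genes, without covariates. Each SE was derived from the log2 fold change and its F statistic. Exon lengths came from GENCODE M21 (99.2% of tested genes). Alternatives were DESeq2 1.42.0, limma-voom (limma 3.58.1), other scalings and filters, removal of a length trend (lowess, span 0.3), the replicate number as a block, and each sample left out. Promoters came from RefSeq GRCm38.p6, and positions are counted from the RefSeq start site, which can differ from the GENCODE gene start. All members are named, with up to 4 genes of each pathway list by adjusted p under 0.05 and size, and the 3 most similar genes of each member that fell. Up to 3 markers are named per list. Reck, Smo and the endothelial markers Eng and Egfl7 were named in addition, after their values were seen. The members and lists were chosen with earlier results of these data known. The code was tested on simulated data. Figures used matplotlib 3.10.9.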

Additional observations from a re-analysis of the deposited data

How the results depend on the processing

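Of the 4 members that fell, 4 remained under DESeq2, limma-voom, RLE or upper quartile scaling, both other filters and the replicate block. Library totals added Fzd7, and removal of the length trend added Fzd3 as higher. With each sample left out in turn, the count of Frizzled genes called ran from 2 to 5, that of all genes from 2518 to 5341 and that of the pathway genes from 16 to 27. The Frizzled count was 2 without control replicate 1 or neomycin replicate 3 (Fzd4 and Fzd6), 2 without control replicate 2 or neomycin replicate 2 (Fzd4 and Fzd9), and 5 without control replicate 3, where Fzd5 joined the 4. The count of all genes was 2567 without control replicate 2, 2518 without neomycin replicate 2 and 3001 without neomycin replicate 3, and that of the pathway genes was 16 without neomycin replicate 2. A fold over 1.5 left 1 member, 1413 genes in all and 9 pathway genes. The causes were not tested.

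The replicate number was shared across the groups. The deviations of samples with the same number correlated at 0.165, 0.0264 and 0.0949, and those with different numbers at -0.129 to 0.0325. For replicates 1 and 3 the same number gave the highest value. Control replicate 2 correlated best with neomycin replicate 3 (0.0325), while neomycin replicate 2 correlated best with control replicate 2 (0.0264). These values do not settle whether the numbers mark pairs, and the main fit used no covariates. With the replicate number as a block, 4 Frizzled genes, 6014 genes in all and 33 pathway genes were called. Of the 24 named pathway genes, 15 kept their call in all 15 alternatives, 37 of 360 fits lost it and 0 turned direction. The length of the longest transcript moved 2 of 20 levels per length, both of Fzd6, and library totals moved 3. The lowest count of a member in a sample was 247, for Fzd5, and the share of counting error in the spread of each member was not computed.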
